A study of Homo sapiens with 6 samples.

Results

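The genes described here encode lysosomal hydrolases, lysosomal membrane proteins and a few regulators of the lysosome. They were taken as the rows of the deposited count table that carry 1 of 39 gene names, and all 39 were found among its 53712 gene names. They comprised 9 protease genes, 10 glycosidase genes, 4 sulfatase genes, 7 genes of lipid and sterol handling, 5 membrane protein genes, the transcription factor genes TFEB and TFE3, and GRN and SQSTM1. All 39 passed the low-count filter and were tested.

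RNA was sequenced from H9, an established line of human embryonic stem cells, grown in RSeT medium, which is made for naive-type pluripotent culture. The first group received 2.5 µM UNC1999, which blocks EZH2 and EZH1, the catalytic subunits of Polycomb repressive complex 2. The other received 2.5 µM UNC2400, an N-methylated analogue of UNC1999 that has low activity on these enzymes. Both groups also received 10 nM DZNep, which inhibits S-adenosylhomocysteine hydrolase, and 5 nM trichostatin A (TSA), a histone deacetylase inhibitor, so no group was free of drugs. Treatment began 24 h after passage and lasted 48 h. There were 3 libraries per compound. Whether they are separate cultures is not labelled, and the spread that p-values rest on may therefore be technical.

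Lysosomes are acidic organelles in which proteases, glycosidases, sulfatases and lipases break down proteins, glycans and lipids delivered by endocytosis and autophagy. Most of the hydrolases carry a mannose-6-phosphate tag that receptors recognise on the way to the organelle, and many of their genes carry an E-box motif bound by the related factors TFEB and TFE3. Loss of a single enzyme usually causes a lysosomal storage disease. Degradation by lysosomes also runs in pluripotent stem cells, where it recycles membrane receptors and supplies amino acids.

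Total counts ran from 33522942 to 34481593 in UNC1999 and from 29699441 to 42345448 in UNC2400. A count of 0 allows up to 3 counts, or 0.0870 to 0.0895 CPM (counts scaled to a common library total) in UNC1999 and 0.0708 to 0.101 CPM in UNC2400, for counting error only. On the first principal component, with 67.8% of the variance, UNC1999 replicate 1 (-20.1) lay nearer to UNC2400 (31.6 to 35.2) than UNC1999 replicates 2 and 3 (-39.3 and -41.4). Over the whole table the compounds differed widely: 52.7% of 17596 genes tested passed an adjusted p of 0.05 by edgeR's quasi-likelihood test, 26.8% as higher and 25.9% as lower in UNC1999.

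Lysosomal genes changed in both directions, and mostly by small amounts. Of the 39 genes, 12 were higher in UNC1999, 14 were lower and 13 did not pass the threshold. In percent these were 30.8% higher and 35.9% lower, beside 26.8% and 25.9% of all genes tested. The median log2 fold change of the 39 genes was -0.018, beside 0.018 for all genes tested. Among the 26 genes past the threshold the median absolute log2 fold change was 0.33, beside 0.42 for the 9268 genes past it over the table, and 1 of the 26, IDUA, changed by more than 2-fold. The largest changes upward were CTSH (0.55), NEU1 (0.55), SQSTM1 (0.43) and SCARB2 (0.43), and the largest downward were IDUA (-1.09), GAA (-0.74), GLB1 (-0.53) and MAN2B1 (-0.45), all in log2. The compounds' values did not overlap for 27 of the 39 genes, beside 60.6% of all genes tested; UNC1999 was above for 13 (background 30.9%) and below for 14 (29.7%). In bulk RNA fewer cells of a type and less RNA per cell cannot be told apart. Without UNC1999 replicate 1, 11 genes were higher and 14 lower. With offsets for genomic span, exon length and GC content the split was 8 higher and 16 lower, and the median was -0.12.

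**Figure D1:**
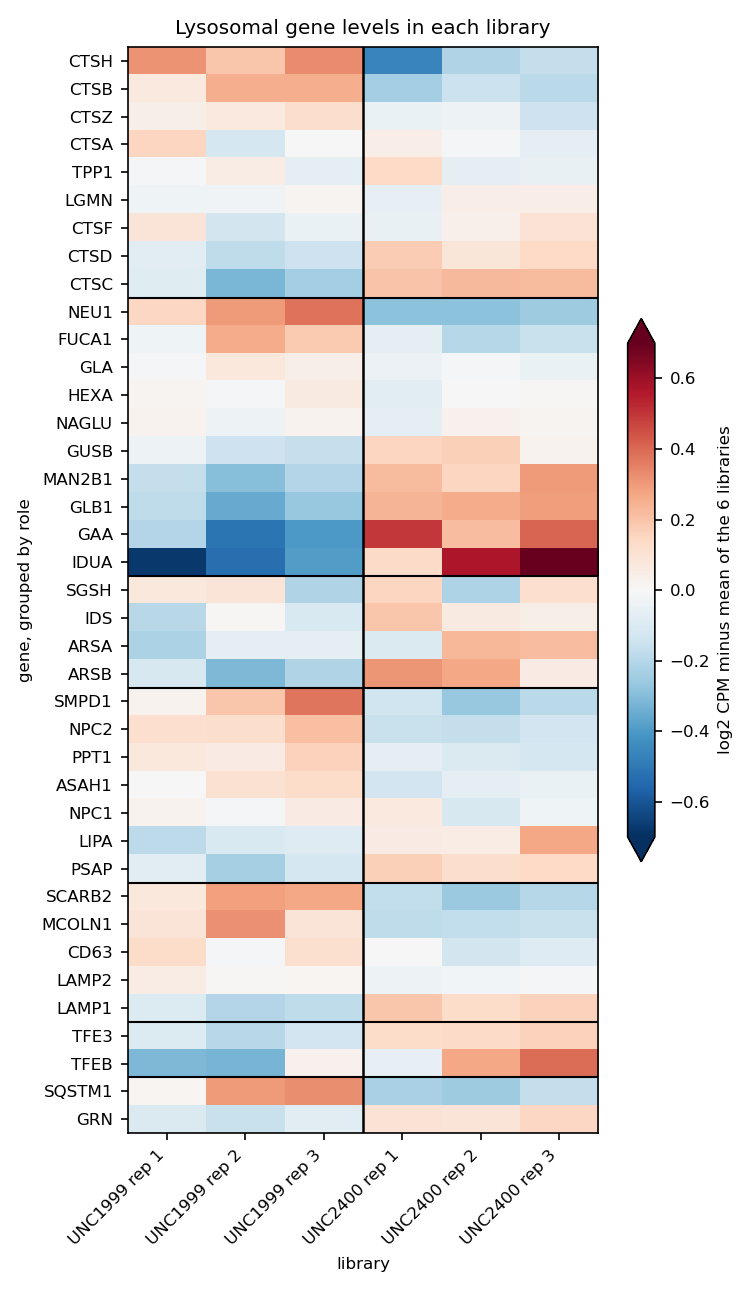
Level of each of the 39 lysosomal genes (rows, grouped by role and ordered by fold change) in each of the 6 libraries (columns, UNC1999 on the left), as log2 CPM minus the gene's mean over the libraries. Red is above and blue below the gene's mean. Each role group of more than 2 genes except the sulfatases holds rows that are red on the UNC1999 side and rows that are blue there, and UNC1999 replicate 1 is often paler than the other UNC1999 libraries.

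Together the 39 genes took a slightly smaller share of the counts in UNC1999. They held 0.306%, 0.306% and 0.311% of all counts in the UNC1999 libraries, against 0.314%, 0.312% and 0.316% in the UNC2400 libraries. The groups did not overlap (exact two-sided permutation p = 0.1, the smallest that 3 against 3 libraries allow). The gap was narrow: the Wilson 95% counting intervals of UNC1999 replicate 3 (0.309% to 0.312%) and UNC2400 replicate 2 (0.310% to 0.314%) overlapped. CTSC and PSAP, which had high counts and were lower in UNC1999, were then left out, a choice made after their values were seen. The other 37 genes held 0.224%, 0.231% and 0.233% of the counts in the UNC1999 libraries, against 0.219%, 0.216% and 0.22% in the UNC2400 libraries. Leaving out genes that were lower favours this order, and CD63, which had high counts and was higher, was kept. No conclusion is drawn from it.

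**Figure D2:**
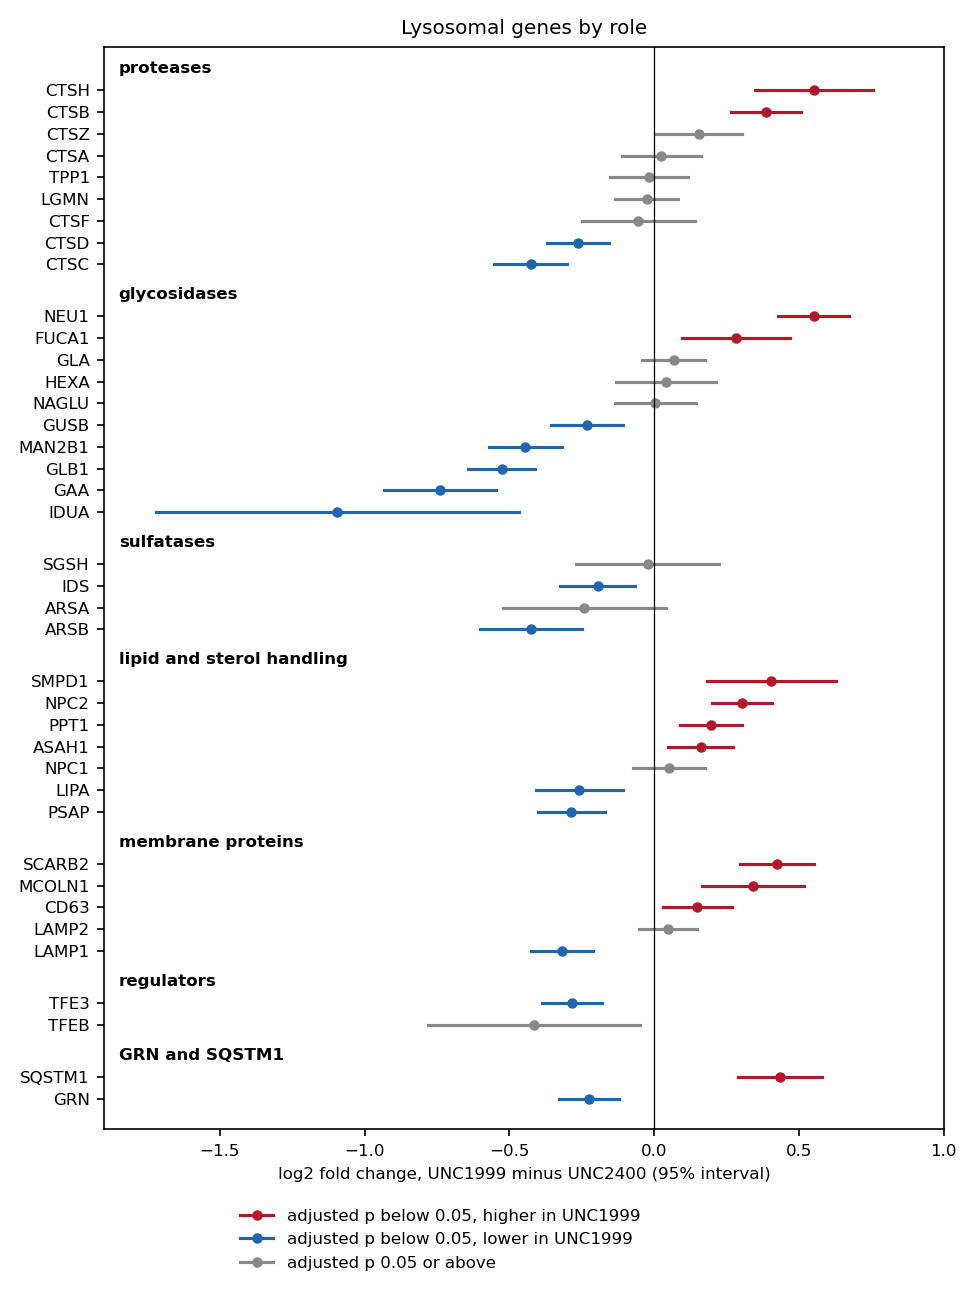
Log2 fold change of each lysosomal gene, UNC1999 minus UNC2400 (points), with its 95% interval (lines), grouped by role. Red genes passed an adjusted p of 0.05 as higher in UNC1999, blue genes as lower, and grey genes did not pass; the points span -1.09 for IDUA to 0.55 for CTSH.

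The E-box that TFEB and TFE3 bind is shown here because genes that carry it went in both directions. RefSeq start sites on build GRCh38.p14 matched 30 of the 39 genes by symbol. The 250 bases before the first listed start site of each gene were searched. Any other start site of these genes was not searched. The E-box core CACGTG, which reads the same on both strands, was found before 8 of the 30 start sites, or 26.7%. It was found before 6.34% of all 35116 RefSeq start sites, and before 8.68% of the 11158 start sites matched to genes tested here. The 8 genes are NEU1, MCOLN1 and CD63, which were higher in UNC1999, GAA, LAMP1 and CTSD, which were lower, and CTSA and CTSF, which did not pass. The longer form TCACGTGA, which contains the core, was found before CTSA, GAA, LAMP1 and MCOLN1. Its share was 0.854% of all start sites and 1.58% of those matched to genes tested. The full palindrome, which adds a G before and a C after those 8 bases, was found before GAA and MCOLN1. Its share was 0.308% of all start sites and 0.636% of those matched to genes tested. The core thus preceded 3 of the 10 matched genes that were higher, 3 of the 13 that were lower and 2 of the 7 that did not pass.

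**Figure D3:**
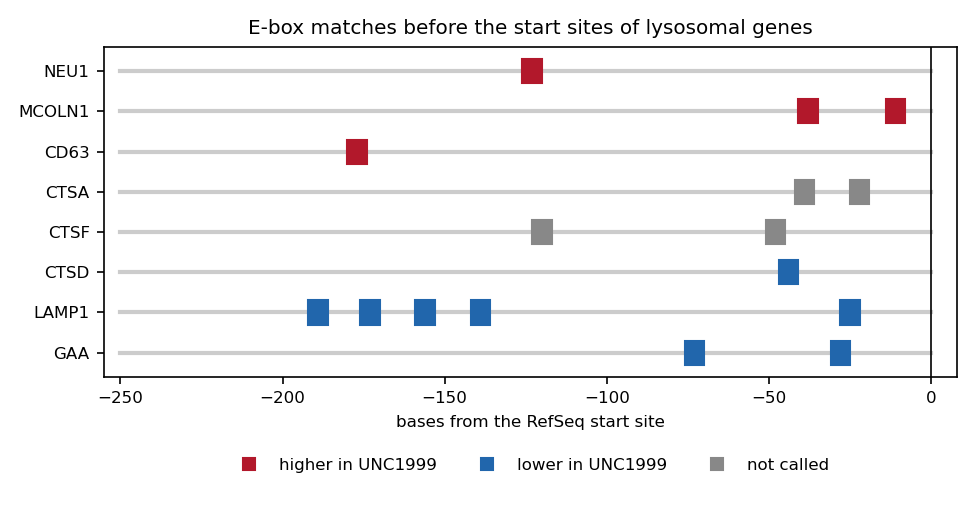
Matches of the E-box core (boxes) in the 250 bases before the RefSeq start sites of the 8 lysosomal genes that hold it, by distance from the start site in bases. Genes run from the highest to the lowest log2 fold change; red is higher and blue lower in UNC1999, grey did not pass the threshold. LAMP1 holds 5 matches, and GAA, MCOLN1, CTSA and CTSF hold 2 each.

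Start regions of 4 genes follow, those of the genes with the largest changes among the ones that hold the core and passed the threshold. Each is the 250 bases before the start site, 5′ to 3′ on the gene's strand, with CACGTG in capitals. NEU1, at chr6:31862822-31863071 on the minus strand, has 1 core, and MCOLN1, at chr19:7522374-7522623 on the plus strand, has 2. GAA, at chr17:80101331-80101580 on the plus strand, has 2, and LAMP1, at chr13:113296989-113297238 on the plus strand, has 5.
NEU1: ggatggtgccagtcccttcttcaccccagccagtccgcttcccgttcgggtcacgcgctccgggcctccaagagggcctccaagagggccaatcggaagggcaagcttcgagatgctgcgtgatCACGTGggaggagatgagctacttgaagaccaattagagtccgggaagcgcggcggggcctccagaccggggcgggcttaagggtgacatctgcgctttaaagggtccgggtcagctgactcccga
MCOLN1: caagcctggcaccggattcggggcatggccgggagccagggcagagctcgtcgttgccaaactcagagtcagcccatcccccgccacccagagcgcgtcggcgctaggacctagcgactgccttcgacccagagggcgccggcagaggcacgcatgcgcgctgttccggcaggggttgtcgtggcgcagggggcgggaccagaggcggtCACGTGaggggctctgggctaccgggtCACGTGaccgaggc
GAA: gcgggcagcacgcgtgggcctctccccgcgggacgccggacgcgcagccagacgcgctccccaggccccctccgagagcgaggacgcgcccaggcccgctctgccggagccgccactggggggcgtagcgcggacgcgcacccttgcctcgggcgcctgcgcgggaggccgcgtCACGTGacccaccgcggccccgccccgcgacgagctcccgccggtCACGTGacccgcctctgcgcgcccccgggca
LAMP1: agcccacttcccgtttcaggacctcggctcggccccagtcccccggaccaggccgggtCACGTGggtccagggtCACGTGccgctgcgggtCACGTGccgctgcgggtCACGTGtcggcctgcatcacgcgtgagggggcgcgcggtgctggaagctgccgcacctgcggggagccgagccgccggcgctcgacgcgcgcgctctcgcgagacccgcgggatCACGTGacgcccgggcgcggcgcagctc
GAA and MCOLN1 share the full palindrome, and their log2 fold changes were -0.74 and 0.34. Of the 5 cores before LAMP1, 4 start between bases -192 and -142 from the start site.

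Among the 9 protease genes, 2 were higher in UNC1999, 2 lower and 5 did not pass, beside 26.8% higher and 25.9% lower of all genes tested. CTSB, a cysteine protease of broad specificity, had 98.2, 112 and 112 CPM in the UNC1999 libraries, against 79.3, 84.5 and 82.1 CPM in the UNC2400 libraries. All UNC1999 libraries were higher, and the fold change was 0.39 ± 0.057 in log2 (SE; adjusted p = 2.62e-05). CTSH, an aminopeptidase of the same family, had 13, 12 and 13.2 CPM in the UNC1999 libraries, against 7.6, 9.03 and 9.31 CPM in the UNC2400 libraries. Every UNC1999 library stood above every UNC2400 library, with a fold change of 0.55 ± 0.10 in log2 (SE; adjusted p = 1.45e-04).

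The protease gene with the highest level per length went the other way. CTSC, which activates serine proteases by removing dipeptides, had 381, 323 and 342 CPM in the UNC1999 libraries, against 463, 472 and 472 CPM in the UNC2400 libraries. It was lower in each UNC1999 library, and least so in replicate 1, with a fold change of -0.43 ± 0.06 in log2 (SE; adjusted p = 1.67e-05). CTSD, the main aspartic protease of the lysosome, had 93.2, 87 and 88.7 CPM in the UNC1999 libraries, against 111, 104 and 108 CPM in the UNC2400 libraries. Again the groups did not overlap, and the fold change was -0.26 ± 0.051 in log2 (SE; adjusted p = 3.16e-04); 41.7% of its exon bases overlap another annotated transcript unit on the same strand, whose reads could be split with it. CTSZ, a carboxypeptidase, had 18.4, 18.8 and 19.5 CPM in the UNC1999 libraries, against 17.3, 17.4 and 16.1 CPM in the UNC2400 libraries. Its groups did not overlap either, but the log2 fold change of 0.15 (95% interval 0.0023 to 0.30) did not pass (adjusted p = 0.0823).

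The other 4 protease genes had log2 fold changes close to 0. They were CTSA (0.025), a serine carboxypeptidase, and LGMN (-0.026), which cleaves after asparagine. They also included TPP1 (-0.018), a tripeptidyl peptidase mutated in a neuronal ceroid lipofuscinosis, and the cysteine protease gene CTSF (-0.056). The intervals of these 4 genes lay between -0.25 and 0.16. Both TPP1 (-0.26, adjusted p = 0.00128) and CTSF (-0.24, adjusted p = 0.0443) passed as lower with the length and GC offsets.

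Of the 10 glycosidase genes, 2 were higher in UNC1999, 5 lower and 3 did not pass, where 26.8% and 25.9% of all genes tested were higher and lower. NEU1 encodes the sialidase that removes terminal sialic acids, and is mutated in sialidosis. It had 109, 121 and 128 CPM in the UNC1999 libraries, against 80.9, 80.7 and 83 CPM in the UNC2400 libraries. The groups lay far apart, with UNC1999 replicate 1 the lowest of its group, and the fold change was 0.55 ± 0.058 in log2 (SE; adjusted p = 8.33e-07). The change was 0.27 (adjusted p = 3.55e-04) with the length and GC offsets. FUCA1, a fucosidase gene, was also higher, by 0.28 ± 0.089 (log2, SE; adjusted p = 0.0133). Its call was lost with the offsets (0.15, adjusted p = 0.141) and without UNC1999 replicate 2 (0.0785), UNC1999 replicate 3 (0.0543) or UNC2400 replicate 2 (0.0683).

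The 5 glycosidase genes that fell act on different glycans. GLB1 encodes beta-galactosidase, which degrades GM1 ganglioside and keratan sulfate. Its values were 46.6, 41.4 and 44 CPM in the UNC1999 libraries, against 62.4, 63.3 and 64.6 CPM in the UNC2400 libraries. No UNC1999 library came near the UNC2400 range, and the fold change was -0.53 ± 0.055 in log2 (SE; adjusted p = 7.66e-07). GAA, the alpha-glucosidase gene that is mutated in Pompe disease and breaks down glycogen, had 14.9, 12.1 and 13 CPM in the UNC1999 libraries, against 24.3, 19.97 and 22.8 CPM in the UNC2400 libraries. All UNC1999 values were below all UNC2400 values, by a fold change of -0.74 ± 0.092 in log2 (SE; adjusted p = 4.41e-06).

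MAN2B1, the lysosomal alpha-mannosidase gene, had 35.1, 32.1 and 34.2 CPM in the UNC1999 libraries, against 45.9, 43.8 and 48.5 CPM in the UNC2400 libraries. No library crossed into the other compound's range, with a fold change of -0.45 ± 0.06 in log2 (SE; adjusted p = 1.02e-05). GUSB, the beta-glucuronidase gene, had 42.9, 39.7 and 39.2 CPM in the UNC1999 libraries, against 48.7, 49.4 and 44.7 CPM in the UNC2400 libraries. Its UNC1999 values were all lower, with a fold change of -0.23 ± 0.059 in log2 (SE; adjusted p = 0.00337), but 10 annotated pseudogenes carry its name and its counts are uncertain. IDUA, the iduronidase gene mutated in Hurler syndrome, had low counts, and is given in full because its fold was the largest, a choice made after its values were seen. It had 15, 17 and 18 counts in the UNC1999 libraries, against 22, 43 and 39 in the UNC2400 libraries. The lowest UNC2400 library was close to the UNC1999 range, and the fold change was -1.09 ± 0.30 in log2 (SE; adjusted p = 0.00509).

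GLA, the alpha-galactosidase gene of Fabry disease, HEXA, the hexosaminidase alpha-subunit gene of Tay-Sachs disease, and NAGLU, an enzyme gene of heparan sulfate breakdown, did not pass. Their log2 fold changes were 0.067 (95% interval -0.043 to 0.18), 0.042 (95% interval -0.13 to 0.21) and 0.0042 (95% interval -0.13 to 0.14). GLA passed as lower with the offsets (-0.18, adjusted p = 0.00541).

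The products of NEU1, GLB1 and CTSA assemble into a complex in the lysosome, in which CTSA protects its partners. Ratios of their raw counts within a library do not depend on the scaling. The ratio of NEU1 to GLB1 counts was 2.34, 2.93 and 2.91 in the UNC1999 libraries and 1.3, 1.28 and 1.29 in the UNC2400 libraries. The ratio of NEU1 to CTSA was 1.97, 2.66 and 2.58 in the UNC1999 libraries and 1.58, 1.64 and 1.75 in the UNC2400 libraries. The ratio of GLB1 to CTSA was 0.845, 0.907 and 0.887 in the UNC1999 libraries and 1.22, 1.29 and 1.37 in the UNC2400 libraries. None of the 3 ratios overlapped between the compounds: NEU1 was higher and GLB1 lower relative to CTSA in every UNC1999 library. These pairs, and those given below, were chosen after the values were seen, so no test is given.

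**Figure D4:**
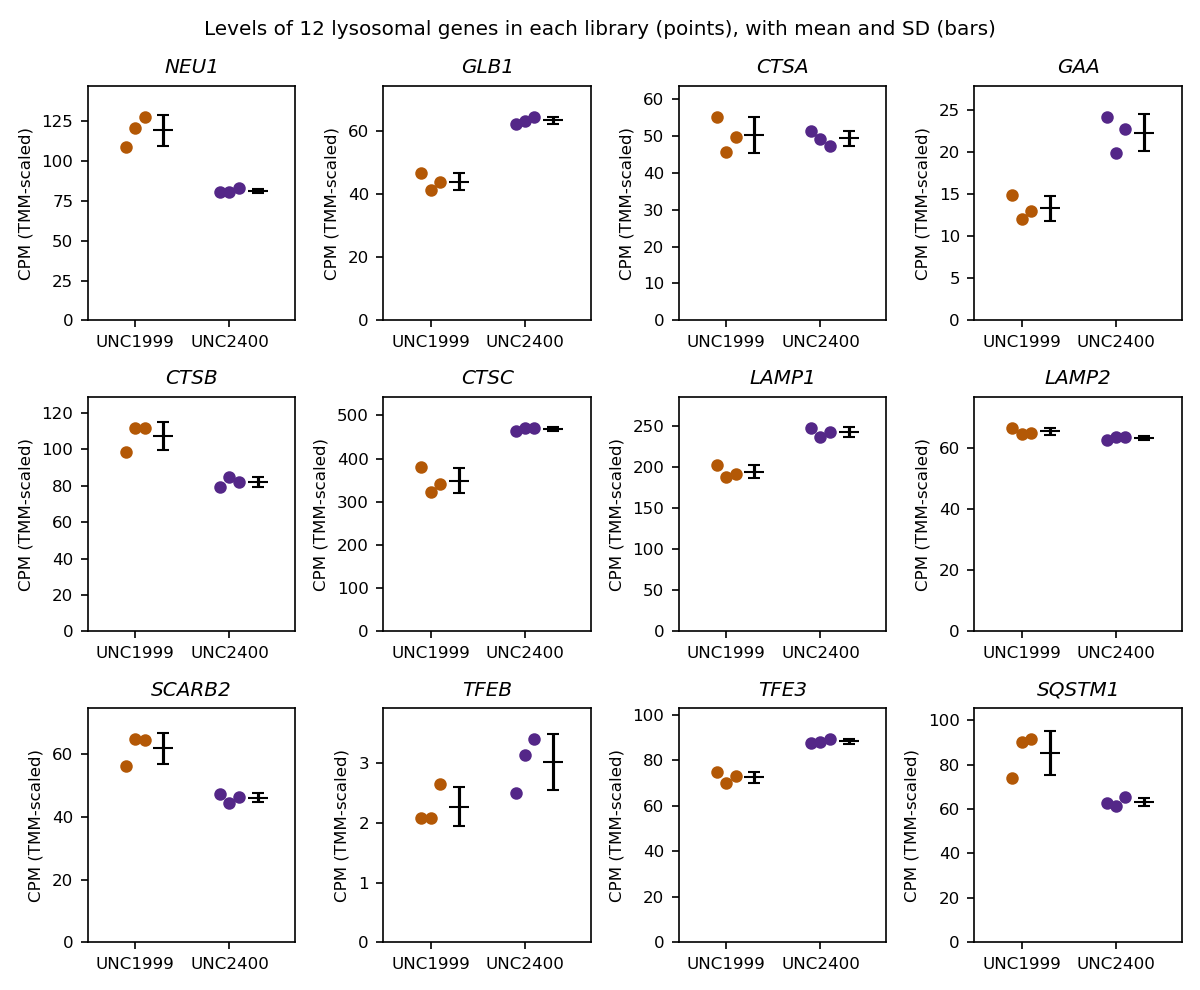
Level of 12 lysosomal genes in TMM-scaled CPM (vertical axes, from 0) in the 3 UNC1999 libraries (left in each panel) and the 3 UNC2400 libraries (right). Points are libraries, and the bars beside them give the mean and SD. NEU1, CTSB, SCARB2 and SQSTM1 stand higher in UNC1999, GLB1, GAA, CTSC, LAMP1 and TFE3 stand lower, and CTSA and TFEB overlap; LAMP2 did not overlap and did not pass the threshold.

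None of the 4 sulfatase genes was higher in UNC1999, and 2 were lower, beside 26.8% higher and 25.9% lower of all genes tested. ARSB, which removes sulfate from dermatan and chondroitin sulfate, had 15.9, 13.8 and 14.9 CPM in the UNC1999 libraries, against 21.3, 20.7 and 17.9 CPM in the UNC2400 libraries. The groups did not overlap, and the fold change was -0.43 ± 0.084 in log2 (SE; adjusted p = 3.97e-04). Its call was lost with those offsets (-0.16, adjusted p = 0.0898). IDS, the iduronate sulfatase gene of Hunter syndrome, had 49.7, 57.3 and 52.9 CPM in the UNC1999 libraries, against 65.1, 59.5 and 58.7 CPM in the UNC2400 libraries. Its groups came close without overlapping, with a fold change of -0.20 ± 0.061 in log2 (SE; adjusted p = 0.0125). Without UNC2400 replicate 1 it did not pass (-0.15, adjusted p = 0.0798), and an annotated pseudogene of the same name, IDSP1, makes its counts uncertain.

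ARSA, whose loss causes metachromatic leukodystrophy, had 3.8, 4.24 and 4.24 CPM in the UNC1999 libraries, against 4.13, 5.2 and 5.14 CPM in the UNC2400 libraries. These ranges overlapped, and the log2 fold change was -0.24 (95% interval -0.52 to 0.039; adjusted p = 0.139). It passed as lower with the offsets (-0.40, adjusted p = 0.0138). SGSH, a heparan sulfate sulfatase gene, had 9.46, 9.58 and 7.78 CPM in the UNC1999 libraries, against 9.96, 7.74 and 9.74 CPM in the UNC2400 libraries. The libraries of both compounds were mixed, with a log2 fold change of -0.023 (95% interval -0.27 to 0.22; adjusted p = 0.883).

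Of the 7 genes of lipid and sterol handling, 4 were higher in UNC1999, 2 lower and 1 did not pass. Over all genes tested, 26.8% were higher and 25.9% lower. NPC2 encodes the soluble protein that hands cholesterol to the membrane protein NPC1 for export. It had 76.7, 76.9 and 81.6 CPM in the UNC1999 libraries, against 63.3, 62.9 and 64.4 CPM in the UNC2400 libraries. The lowest UNC1999 library was above the highest UNC2400 library, and the fold change was 0.30 ± 0.05 in log2 (SE; adjusted p = 7.44e-05). NPC1 itself had a log2 fold change of 0.05 (95% interval -0.074 to 0.17). The ratio of NPC2 to NPC1 counts was 1.88, 1.93 and 1.95 in the UNC1999 libraries and 1.51, 1.7 and 1.64 in the UNC2400 libraries, with no overlap. With the length and GC offsets this order was not seen: NPC2 was 0.12 (adjusted p = 0.055) and NPC1 passed as higher (0.17, adjusted p = 0.0156).

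SMPD1, the acid sphingomyelinase gene, had 8.94, 10.1 and 11.4 CPM in the UNC1999 libraries, against 7.99, 7.3 and 7.72 CPM in the UNC2400 libraries. UNC1999 was higher throughout, with a fold change of 0.41 ± 0.11 in log2 (SE; adjusted p = 0.0040). PPT1, which removes palmitate from proteins, had 199, 197 and 211 CPM in the UNC1999 libraries, against 180.1, 176 and 174 CPM in the UNC2400 libraries. Its groups did not overlap, and the fold change was 0.20 ± 0.05 in log2 (SE; adjusted p = 0.00352). ASAH1, the acid ceramidase gene, was higher by 0.16 ± 0.054 (log2, SE; adjusted p = 0.0187). These 3 calls were lost in some alternatives. With the offsets SMPD1 was 0.21 (adjusted p = 0.0791) and PPT1 0.094 (0.165). Without UNC1999 replicate 3 the adjusted p was 0.0684 for PPT1 and 0.131 for ASAH1. ASAH1 also did not pass without UNC1999 replicate 2 (0.0648), without UNC2400 replicate 1 (0.103), with no low-count filter (0.0941) or with DESeq2 (0.0509). Of the exon bases of PPT1, 23.4% overlap CAP1 on the opposite strand, and the strand setting of the counting is not given.

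PSAP, the precursor of the saposins that present sphingolipids to their hydrolases, is also the source of a secreted growth factor. It had 439, 395 and 425 CPM in the UNC1999 libraries, against 520.0, 505 and 510.1 CPM in the UNC2400 libraries. Every UNC1999 library was lower, with a fold change of -0.29 ± 0.055 in log2 (SE; adjusted p = 3.25e-04). LIPA, the acid lipase that releases cholesterol from lipoproteins, had 22.2, 23.4 and 23.7 CPM in the UNC1999 libraries, against 26.3, 26.2 and 30.5 CPM in the UNC2400 libraries. The groups did not overlap, and the fold change was -0.26 ± 0.071 in log2 (SE; adjusted p = 0.00575). It lost its call with the offsets (-0.042, adjusted p = 0.64) and without UNC2400 replicate 3 (-0.19, adjusted p = 0.0565).

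Among the 5 membrane protein genes, 3 were higher, 1 lower and 1 did not pass, beside 26.8% higher and 25.9% lower of all genes tested. SCARB2, the receptor that carries glucocerebrosidase to the lysosome, had 56.1, 64.8 and 64.3 CPM in the UNC1999 libraries, against 47.1, 44.4 and 46.4 CPM in the UNC2400 libraries. The groups were well apart, with a fold change of 0.43 ± 0.061 in log2 (SE; adjusted p = 1.87e-05). MCOLN1, a cation channel of the lysosomal membrane, had 15.7, 18.4 and 15.7 CPM in the UNC1999 libraries, against 13, 13.1 and 13.2 CPM in the UNC2400 libraries. UNC1999 replicate 2 was the highest library, all UNC2400 libraries were lower, and the fold change was 0.34 ± 0.083 in log2 (SE; adjusted p = 0.00244). CD63, a tetraspanin of late endosomes, had 395, 358 and 391 CPM in the UNC1999 libraries, against 361, 331 and 340.5 CPM in the UNC2400 libraries. Its ranges overlapped, and the fold change of 0.15 ± 0.056 in log2 (SE; adjusted p = 0.0355) lost its call under 8 of 14 alternatives, with the length and GC offsets (-0.12) changing its sign. Without UNC1999 replicate 1 its adjusted p was 0.125.

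LAMP1 and LAMP2, the most abundant glycoproteins of the lysosomal membrane, did not share a call. LAMP1 had 203, 189 and 192 CPM in the UNC1999 libraries, against 248, 237 and 243 CPM in the UNC2400 libraries. All UNC1999 libraries were lower, with a fold change of -0.32 ± 0.051 in log2 (SE; adjusted p = 5.67e-05). LAMP2, which also takes part in chaperone-mediated autophagy, had 66.5, 64.4 and 64.8 CPM in the UNC1999 libraries, against 62.6, 63.3 and 63.6 CPM in the UNC2400 libraries. Its UNC1999 values were above its UNC2400 values by small steps, with a log2 fold change of 0.047 (95% interval -0.054 to 0.15; adjusted p = 0.432). The ratio of LAMP1 to LAMP2 counts was 3.05, 2.93 and 2.96 in the UNC1999 libraries and 3.97, 3.75 and 3.82 in the UNC2400 libraries, with no overlap.

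Of the 2 transcription factor genes, TFE3 was lower in UNC1999. TFE3 had 74.8, 70.04 and 73 CPM in the UNC1999 libraries, against 87.6, 87.9 and 89.6 CPM in the UNC2400 libraries. Its UNC1999 values were all below its UNC2400 values, and the fold change was -0.28 ± 0.049 in log2 (SE; adjusted p = 1.29e-04). TFEB, whose levels were low, had 2.09, 2.07 and 2.65 CPM in the UNC1999 libraries, against 2.5, 3.14 and 3.41 CPM in the UNC2400 libraries. UNC1999 replicate 3 lay within the UNC2400 range, and the log2 fold change of -0.41 (95% interval -0.78 to -0.049) missed the threshold (adjusted p = 0.0538). TFEB passed as lower in 5 alternatives, among them RLE scaling (-0.43, adjusted p = 0.0466), the fit without UNC2400 replicate 1 (0.0305) and the fit without UNC1999 replicate 3 (-0.56, adjusted p = 0.0253). The activity of these factors is set largely by their phosphorylation and place in the cell, which RNA counts do not measure.

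GRN and SQSTM1 went in opposite directions. GRN encodes progranulin, which reaches the lysosome in part together with prosaposin and is mutated in a frontotemporal dementia. It had 143, 138 and 146 CPM in the UNC1999 libraries, against 165, 164 and 170.4 CPM in the UNC2400 libraries. Like PSAP, it was lower in every UNC1999 library, with a fold change of -0.23 ± 0.049 in log2 (SE; adjusted p = 9.39e-04); offsets for length and GC gave -0.37 (adjusted p = 1.91e-05). SQSTM1, which encodes the autophagy receptor p62, had 74, 90.1 and 91.7 CPM in the UNC1999 libraries, against 62.5, 61.6 and 65.3 CPM in the UNC2400 libraries. UNC1999 replicate 1 was closest to UNC2400, but the groups did not overlap, with a fold change of 0.43 ± 0.069 in log2 (SE; adjusted p = 5.29e-05). Of its exon bases, 22.0% overlap genes on the opposite strand, MGAT4B among them.

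Levels of different genes are compared per length, as CPM per kilobase of the principal coding transcript in GENCODE release 29. On this scale CD63 was the highest of the 39 genes (309 in UNC1999 and 279 in UNC2400), followed by CTSC (182 in UNC1999 and 244 in UNC2400) and PSAP (146 in UNC1999 and 178 in UNC2400). These 3 kept the first 3 places in both groups. NPC2 took rank 4 in UNC1999 and rank 6 in UNC2400, NEU1 rank 7 and rank 9, and SQSTM1 rank 11 and rank 17, while GLB1 took rank 18 in UNC1999 and rank 13 in UNC2400. The lowest per length were IDUA (0.223 in UNC1999 and 0.476 in UNC2400) and TFEB (0.965 in UNC1999 and 1.28 in UNC2400), with ARSA (2.0 in UNC1999 and 2.35 in UNC2400) and HEXA (2.36 in UNC1999 and 2.29 in UNC2400) next in both groups, in different order. Some counts are uncertain because the strand setting is not given: exon bases of CTSA (28.5%), CTSD (15.8%), IDUA (13.4%) and HEXA (13%) overlap annotated genes on the other strand. Those of MAN2B1 (21.2%) and IDS (17.4%) overlap annotated transcripts on the same strand, and those counts are uncertain under any strand setting. Annotated pseudogenes are also named for FUCA1, LGMN and SQSTM1.

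The other genes of lysosome formation and autophagy were also split. The counts of each list below stand beside 26.8% higher and 25.9% lower of all genes tested. Of 33 other genes tested from a list of lysosomal hydrolases and proteins that work with them, 13 were higher, 9 lower and 11 did not pass, with a median log2 fold change of 0.13. The list also holds genes that encode no hydrolase, so its counts are not counts of hydrolases alone. Examples are GM2A, an activator protein gene, and TMEM9, a membrane protein gene, among the 13. The acetyltransferase gene HGSNAT among the 9 is another, as are SUMF1 and SPNS1, which did not pass. The acid phosphatase gene ACP2 was higher by 0.46 ± 0.065 and the hyaluronidase-family gene HYAL2 by 0.33 ± 0.053, while PLD3, a lysosomal nuclease gene, fell by 0.68 ± 0.056 (log2, SE). The offsets gave 0.29 for ACP2 and 0.18 for HYAL2. Of 27 other membrane protein genes, 10 were higher, 7 lower and 10 did not pass (median 0.026). TMBIM1 and TMEM192 were higher by 0.92 ± 0.087 and 0.67 ± 0.067, and the amino acid sensor gene SLC38A9 and the transporter gene ABCA2 had log2 fold changes of -0.61 ± 0.059 and -0.93 ± 0.11 (SE); SLC38A9 was -0.40 with the offsets.

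Of 21 subunit genes of the V-ATPase, the proton pump that acidifies the lysosome, 4 were higher, 6 lower and 11 did not pass (median -0.038). ATP6V1A and ATP6V1B2, which form its catalytic head together, had log2 fold changes of -0.35 ± 0.049 and 0.24 ± 0.049, and ATP6AP2 and ATP6V0B had -0.28 ± 0.047 and 0.36 ± 0.053 (SE). ATP6V0B did not pass with the offsets (0.097, adjusted p = 0.127). Of 20 genes from a list of mannose-6-phosphate sorting and adaptors, 3 were higher, 9 lower and 8 did not pass (median -0.13). The list also holds sorting genes not specific to the tag, so its counts are not counts of tag sorting alone. Examples are SORT1, SORL1, AP3B1 and AP3D1 among the 9, AP3S2 among the 3, and AP3M1 and AP3S1, which did not pass. The small adaptor subunit gene AP1S1 was higher, with 68.2 ± 4.19 CPM in UNC1999 and 33 ± 1.79 CPM in UNC2400 (SD, n = 3 each). The sorting receptor gene SORL1 was lower, with 76.5 ± 11.4 CPM in UNC1999 and 148 ± 13 CPM in UNC2400 (SD, n = 3 each). SORL1 had a log2 fold change of -0.95 ± 0.084 (SE), and of -0.63 with the offsets. The adaptor genes AP1S2 and AP1B1 had log2 fold changes of -0.63 ± 0.062 and -0.70 ± 0.069 (SE).

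Of 25 regulators of TFEB and of the growth kinase complex mTORC1, 12 were higher, 7 lower and 6 did not pass (median 0.094). TSC2, a brake on mTORC1, had 23.4 ± 5.39 CPM in UNC1999 and 59.5 ± 1.06 CPM in UNC2400 (SD, n = 3 each). The difference was -1.35 ± 0.10 in log2 (SE; adjusted p = 2.70e-08). The kinase gene MTOR had 114 ± 14 CPM in UNC1999 and 201 ± 11.4 CPM in UNC2400 (SD, n = 3 each). The Rag GTPase gene RRAGD and the Ragulator subunit gene LAMTOR4, whose products recruit mTORC1 to the lysosome, were higher by 0.58 ± 0.063 and 0.50 ± 0.054 (log2, SE). Of 36 autophagy genes, 7 were higher, 13 lower and 16 did not pass (median -0.023), with ATG2B, PIK3C3, RB1CC1 and ATG7 at log2 fold changes of -0.55 ± 0.06, -0.50 ± 0.054, -0.40 ± 0.057 and -0.71 ± 0.10 (SE). PIK3C3, RB1CC1 and ATG7 were -0.26, -0.23 and -0.37 with the offsets, and still passed. Of 23 genes of early and late endosome fusion, 5 were higher, 6 lower and 12 did not pass (median 0.02). The GTPase gene RAB5A and the tether genes VPS41 and VPS8 had log2 fold changes of -0.65 ± 0.049, -0.44 ± 0.062 and -0.40 ± 0.064 (SE). With the offsets VPS41 was -0.18, and VPS8 did not pass (-0.088, adjusted p = 0.207).

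**Figure D5:**
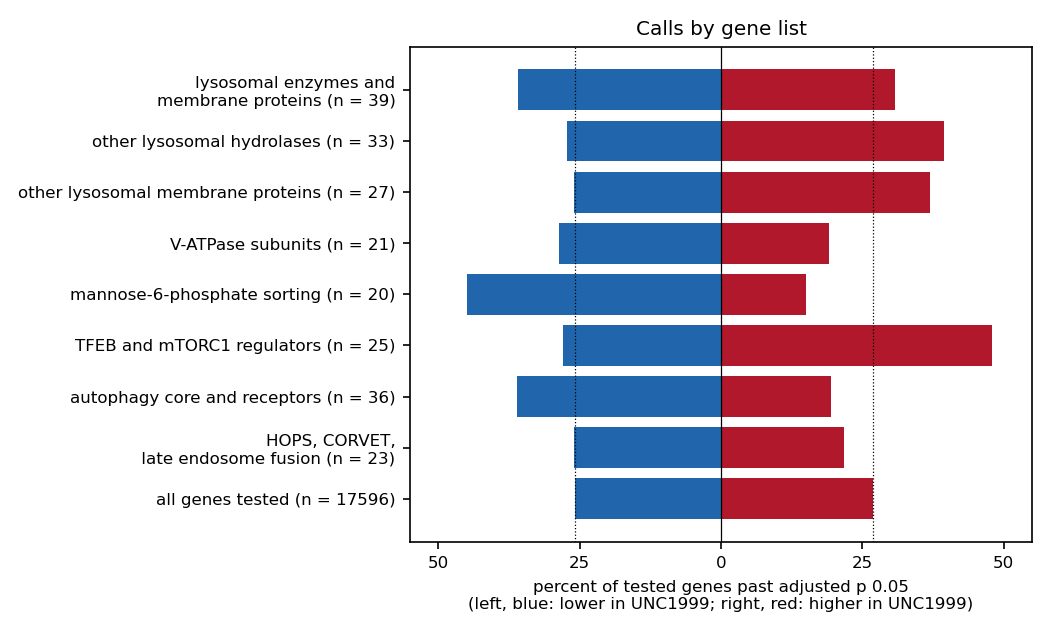
Percent of the tested genes of each list that passed an adjusted p of 0.05 as higher (red, to the right) or lower (blue, to the left) in UNC1999, with the number tested in parentheses. Dotted lines mark all genes tested, 26.8% higher and 25.9% lower. The 39 lysosomal genes stand at 30.8% and 35.9%, and every list holds genes on both sides.

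Measures outside the lysosome moved with the compounds and are given beside these results. The labelled cell type was borne out by its markers, as all 10 pluripotency markers were expressed. Of these 10, 0 were higher in UNC1999 and 6 lower, beside 26.8% and 25.9% of all genes tested. POU5F1 had 935 to 1094 CPM in UNC1999 and 1361 to 1419 CPM in UNC2400. DNMT3B had 1055 to 1424 CPM in UNC1999 and 2423 to 2588 CPM in UNC2400. The summed level of the 10 markers was 7444 to 8625 CPM in UNC1999 and 10240.3 to 10443 CPM in UNC2400. Of the 12 fibroblast or feeder markers, 7 reached 1 CPM and their summed level was 216 to 231 CPM in UNC1999 and 317 to 346 CPM in UNC2400. Most of it was COL1A2 (81.2 to 87.7 CPM in UNC1999 and 124 to 152 CPM in UNC2400), THY1 (64.7 to 72.1 CPM in UNC1999 and 83.4 to 93.6 CPM in UNC2400) and COL1A1 (30.9 to 36.5 CPM in UNC1999 and 51.9 to 60.3 CPM in UNC2400). Of the 8 tested, 3 were higher and 5 lower, and DCN, LUM and FAP were at or below 0.0853 CPM in every library. Of 10 macrophage markers, cells rich in lysosomes, 1 reached 1 CPM (AIF1), and their summed level was 3.08 to 3.98 CPM in UNC1999 and 3.37 to 3.98 CPM in UNC2400. Of the 12 trophoblast markers, 4 reached 1 CPM, and CGB and VGLL1 had 0 counts in all libraries. Trophoblast markers summed to 231 to 263 CPM in UNC1999 and 256 to 268 CPM in UNC2400. Nearly all of that sum was ITGA6 (174 to 208 CPM in UNC1999 and 205 to 218 CPM in UNC2400) and TFAP2C (49.0 to 51.0 CPM in UNC1999 and 46.0 to 48.2 CPM in UNC2400). GATA3 and TFAP2A were at or below 0.284 CPM in every library. Of the 5 trophoblast markers tested, 1 was higher and 1 lower. Endoderm markers summed to 31.6 to 33.5 CPM in UNC1999 and 43.7 to 45.8 CPM in UNC2400, with TTR at 0. Most of that sum was PDGFRA (24.1 to 28.3 CPM in UNC1999 and 39.8 to 40.6 CPM in UNC2400), which is also on the feeder list, while CXCR4 had 2.93 to 5.22 CPM in UNC1999 and 1.56 to 2.55 CPM in UNC2400. Of the 5 tested, 2 were higher and 2 lower. The part of the pluripotency and feeder markers in the lysosomal changes was not tested.

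Across the 39 genes the log2 fold change and the genomic span had a Spearman correlation of -0.21, beside -0.39 across 14812 tested genes with an annotated span. With GC content the correlation was -0.23 across the 39 genes, beside 0.050 across the 14812. Genes share libraries and are not independent replicates. The part of span and GC content in the changes was not tested beyond the offsets given above.

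The authors' deposited comparison table called 11 of the 39 genes higher and 15 lower at an adjusted p of 0.05, where it called 21.3% of 20901 genes higher and 22.7% lower. In the authors' deposited table the direction was the same as in the fit for 38 of the 39 genes, the exception being NAGLU, at -0.015. The authors' deposited table did not call CD63 (adjusted p = 0.0755) and called TFEB as lower (log2 fold change -0.44, adjusted p = 0.0435).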

How the data were processed

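RNA (200 ng per library) was poly(A)-selected and made into libraries with a strand-marking kit, per the labels' protocols. The authors deposited whole-number counts per gene name; per the submitters' processing notes, build hg19, featureCounts, Subread 1.5.0, TopHat2 2.0.13 and Trim Galore 0.4.0 were used. For the annotation, strand setting, multi-mapping rule and the meaning of the duplicate-removed mark: not given in the sources used here. Of the names, 26 were turned into calendar dates; 21 of these were tested and stay unnamed. The authors' deposited log2 values and comparison table (log2 fold changes, p-values, scores) were used to compare only; the deposited log2 values are marked as batch-corrected.

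The two-sided quasi-likelihood test of edgeR 4.0.16 (R 4.3.3) was run on the counts with TMM scaling, its default filter and group as the only term, with Benjamini-Hochberg adjustment over 17596 genes and a threshold of 0.05. Fold changes are UNC1999 minus UNC2400 in log2, levels are TMM-scaled CPM, and log2 CPM has a prior count of 2. Alternatives were RLE and upper-quartile scaling, no filter, at least 1 CPM in 3 libraries, DESeq2 1.42.0, limma-voom (limma 3.58.1), a replicate block, spline offsets for span, exon length and GC (GENCODE release 29, 84.2% of genes tested and 89.0% of those called), and leaving out each library. The fits were also run on simulated counts, in which far fewer genes changed than passed here. That run cannot vouch for the scaling or the calls under changes as wide as these. The members and lists were chosen with earlier results of these data known. Values per library are given for TFEB, TFE3 and up to 5 genes per role with the smallest p, and for IDUA by choice; up to 4 genes per other list are named, and some that this takes are not reported here. Of the listed symbols of those lists, 4 found no match. No rows name no gene. GRCh38 annotations were used by gene name, and coordinates are RefSeq's.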

Additional observations from a re-analysis of the deposited data

How the results depend on the processing

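Of the 26 lysosomal genes past the threshold, 17 kept their call and direction under all alternatives in which they were tested: CTSB, CTSC, CTSD, CTSH, GLB1, GAA, GUSB, IDUA, NEU1, MAN2B1, PSAP, LAMP1, SCARB2, MCOLN1, TFE3, GRN and SQSTM1. IDUA did not pass the filter of 1 CPM in 3 libraries. CD63 changed sign once length and GC were offset (-0.12, adjusted p = 0.159). Sign changes of genes that had not passed were those of CTSA (-0.064 with the offsets; -0.070 to 0.081 with a library left out), GLA (-0.18 with the offsets), NAGLU (-0.12 with the offsets, -0.0070 with RLE, -0.0069 with DESeq2, -0.013 with no filter; -0.028 to 0.020 with a library left out), TPP1 (-0.0575 to 0.046 with a library left out, above 0 without UNC2400 replicate 1) and SGSH (-0.14 to 0.050 with a library left out). The median over the 39 genes was -0.12 with the offsets and -0.040 to 0.014 with a library left out, positive only without UNC2400 replicate 1. Counts of higher and lower lysosomal genes were 8 to 11 and 13 to 15 with a library left out, 12 falling to 8 without UNC1999 replicate 3. Over the whole table they were 3642 to 4925 and 3951 to 5151, and over the 7 other lists together 43 to 58 and 49 to 66, against 54 and 57. The difference in the share of counts was -0.0078 to -0.0053 percentage points. With the replicate block, 12 lysosomal genes were higher and 15 lower, TFEB being added (-0.41, adjusted p = 0.0391). Libraries of the same number correlated by 0.0237, 0.0839 and 0.124 in their deviations from the group means. Each UNC1999 library correlated best with the UNC2400 library of its number, but UNC2400 replicate 1 correlated best with UNC1999 replicate 2 (0.0618). These weak correlations do not settle whether the numbers pair the libraries, and the main fit has no pairing. The block changed the whole-table counts to 4867 and 4695. Depth limits IDUA and TFEB most.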

Other observations

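Within the list of TFEB and mTORC1 regulators, parts of the machinery that act at the lysosome surface stood on different sides. These genes were singled out after their values were seen. The counts given for them stand beside 26.8% higher and 25.9% lower of all genes tested. The mTORC1 subunit genes MTOR and RPTOR had log2 fold changes of -0.82 ± 0.072 and -0.71 ± 0.084 (SE), and MLST8, the third core subunit, had 0.26 ± 0.052. Of the 4 Rag GTPase genes, RRAGA, RRAGC and RRAGD were higher in UNC1999 by 0.47 ± 0.056, 0.50 ± 0.065 and 0.58 ± 0.063 (log2, SE), and RRAGB did not pass (adjusted p = 0.997). Of the 5 Ragulator genes, LAMTOR1, LAMTOR2 and LAMTOR4 were higher by 0.31 ± 0.047, 0.39 ± 0.064 and 0.50 ± 0.054 (log2, SE), and LAMTOR3 and LAMTOR5 did not pass. FLCN and FNIP1, which act on the Rag GTPases, were higher by 0.48 ± 0.057 and 0.41 ± 0.062 (log2, SE), and FNIP2 did not pass (adjusted p = 0.985). Other listed regulators of mTORC1 were split. NPRL2 was higher by 0.25 ± 0.088, and NPRL3, DEPDC5 and RHEB had log2 fold changes of -0.45 ± 0.095, -0.22 ± 0.063 and -0.14 ± 0.054 (SE) and passed as lower. The tuberous sclerosis genes parted, with TSC1 at 0.35 ± 0.054 and TSC2 at -1.35 ± 0.10 (log2, SE).

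With the length and GC offsets these log2 fold changes were -0.57 for MTOR, -0.15 for RPTOR, 0.11 for MLST8, 0.16 for RRAGA, 0.37 for RRAGC, 0.57 for RRAGD, 0.20 for LAMTOR1, 0.12 for LAMTOR2, 0.35 for LAMTOR4, 0.50 for FLCN, 0.62 for FNIP1, 0.47 for TSC1 and -1.11 for TSC2, and RPTOR, MLST8 and LAMTOR2 did not pass. LAMTOR5 passed as lower there (-0.27, adjusted p = 0.00154), and FNIP2 as higher (0.20, adjusted p = 0.0158). NPRL3 and RHEB were -0.28 and -0.17 with the offsets and still passed, while NPRL2 (-0.017) and DEPDC5 (0.082) did not pass. The receptor genes for the mannose-6-phosphate tag also parted: M6PR had 152 ± 7.5 CPM in UNC1999 and 112 ± 3.51 CPM in UNC2400 (SD, n = 3 each), and IGF2R had 174 ± 19.1 CPM in UNC1999 and 244 ± 23.9 CPM in UNC2400 (SD, n = 3 each). Their log2 fold changes were 0.44 ± 0.052 and -0.49 ± 0.076 (SE; adjusted p = 2.87e-06 and 4.44e-05), and 0.17 and -0.22 with the offsets.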
